A study of Mus musculus with 9 samples.

Results

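The genes of DNA replication and nucleotide synthesis are described here in nascent RNA of CD8 (cytotoxic) T lymphocytes of the mouse. The set holds 43 genes, named by symbol, of the 37022 genes that have a row in the deposited tables. Where a gene had several transcript rows, the row whose gene-body signal averaged highest across the 9 libraries stands for it. The genes were not picked by a threshold on these values, but the set was proposed with earlier results of these data known, so its counts are descriptions.

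Live cells were given 0.2 mM 5-ethynyl uridine for 30 minutes, and the RNA made in that time was captured and sequenced. Each of 3 groups had 3 libraries: CD8 T cells after acute stimulation (Acute), after chronic stimulation (Chronic), and after chronic stimulation with MEK inhibition (ChronicMEKi, called MEK-inhibited below). MEK is the kinase that activates ERK downstream of the T cell receptor. The study set these groups against each other to study T cell exhaustion, a state of lost function that follows persistent stimulation. The labels give no mouse strain, genotype, age, duration or manner of stimulation, or inhibitor, and nothing in them says that replicates came from separate animals or cultures, so p-values measure only the spread between these libraries. The wells treated with actinomycin D that the protocol mentions were not analysed here.

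Replication starts where the origin recognition complex, with Cdc6 and Cdt1, loads a ring of the 6 MCM proteins on DNA, a step called licensing. Cdc45 and the GINS complex turn the ring into the active helicase, PCNA clamps polymerases to the template, and ribonucleotide reductase and thymidylate synthase supply deoxynucleotides. Most of these genes are transcribed around the start of S phase under E2F factors, which the retinoblastoma protein holds back until cyclin-dependent kinases, among them those bound to cyclin E, release them. Activated T cells divide quickly, and these genes are widely read as markers of cycling cells. In bulk samples, fewer cells of a type (here cells in S phase) and less RNA per cell cannot be told apart.

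Values below are scaled gene-body signal: the deposited signal over the body of a gene, divided by a trimmed-mean factor for each library. Levels are therefore relative to the bulk of the genes and not amounts per cell, and depth in reads is unknown. Fold changes are on the log2(signal + 5) scale and carry their standard error after ±, where given (3 libraries per group), and all adjusted p-values are limma's after Benjamini-Hochberg adjustment over the 15942 genes tested, with a threshold of 0.05. A gene is said to have risen or fallen only if it passed. All 43 genes passed the filter on low values in the gene body. Comparisons with acute libraries share the acute group, and both comparisons with chronic libraries share the chronic group, so their values are given side by side and not as independent evidence.

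The libraries looked like CD8 T cells. All 10 CD8 T cell markers were tested, with Cd8a between 832 and 4340 and Cd3e between 2552 and 3979 over the 9 libraries. The summed level of the 10 ran from 40310 to 47480 in acute, from 30650 to 32030 in chronic and from 36500 to 39500 in MEK-inhibited libraries. These markers differed between groups: 1 rose and 6 fell between chronic and acute libraries (18.0% and 15.9% of all genes tested), with log2 fold changes from -2.07 to 0.63. Between MEK-inhibited and chronic libraries 4 rose and 2 fell (9.92% and 7.65%). Markers of other cells were low: 7 B cell genes summed to 275 to 897, 7 macrophage or monocyte genes to 166 to 361, 6 dendritic cell genes to 199 to 444, 5 natural killer cell genes to 1078 to 1909, most of it Eomes, which CD8 T cells also express, 5 fibroblast genes to 47.3 to 201, and 5 erythroid genes to at most 47.5. The 2 CD4 T cell genes with a row, Cd4 and Zbtb7b, summed to 1040 to 1367 in acute, 1054 to 1383 in chronic and 1729 to 2016 in MEK-inhibited libraries. Apart from Eomes, Cd4 and Zbtb7b, the highest single markers of other cells were Cd79a (63.1 to 375), Ebf1 (84.9 to 288) and Pax5 (42.3 to 207) of B cells, Zbtb46 of dendritic cells (142 to 263) and Cd68 of macrophages (67.9 to 139). Ncr1, Lyz2 and Cd14 were at 0 in 4, 5 and 4 of the 9 libraries and did not exceed 9.68. A ribosomal RNA-like locus took 19.1 to 22.3% of gene-body signal in acute, 34.2 to 40.6% in chronic and 29 to 36.1% in MEK-inhibited libraries. The part of these markers and of that locus in the results was not tested, apart from the scalings given below.

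Replication genes were higher after chronic than after acute stimulation, with and without the MEK inhibitor. Between chronic and acute libraries, 38 of the 43 rose, none fell and 5 did not pass, where 18.0% of all genes tested rose and 15.9% fell (33.9% in either direction). The median log2 fold change was 0.88 over the 43 genes and -0.016 over all genes tested, and 16 of the 43 were above 1. Between MEK-inhibited and acute libraries 42 rose and none fell, against 14.4% and 11.5% of all genes (25.8% together), with a median of 1.03. In the comparison of MEK-inhibited with chronic libraries 10 rose, 4 fell and 29 did not pass, against 9.92% and 7.65% of all genes (17.6% together). The share of the set that fell was thus near that of all genes. The median was 0.13 over the set and 0.037 over all genes. In that comparison the E2F and cyclin E group held 5 of the 14 calls.

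The same order appeared in each library's sum. The 43 genes took 0.203 to 0.228% of gene-body signal in acute, 0.271 to 0.297% in chronic and 0.317 to 0.350% in MEK-inhibited libraries, and the groups did not overlap. With the ribosomal RNA-like rows left out, the shares were 0.261 to 0.282%, 0.424 to 0.463% and 0.479 to 0.496%, again without overlap. Against acute libraries single genes were nearly as cleanly separated: all 3 chronic libraries lay above all 3 acute ones for 40 of the 43 genes, and none had them all below, where 22.4% and 21.9% of all genes tested did so. For MEK-inhibited against acute libraries this held for 42 genes and the reverse for none (22.4% and 19.6% of all genes). Separation was less clean for MEK-inhibited against chronic libraries, where 17 lay wholly higher, 6 wholly lower (17.8% and 14.4% of all genes) and 20 overlapped.

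**Figure D1:**
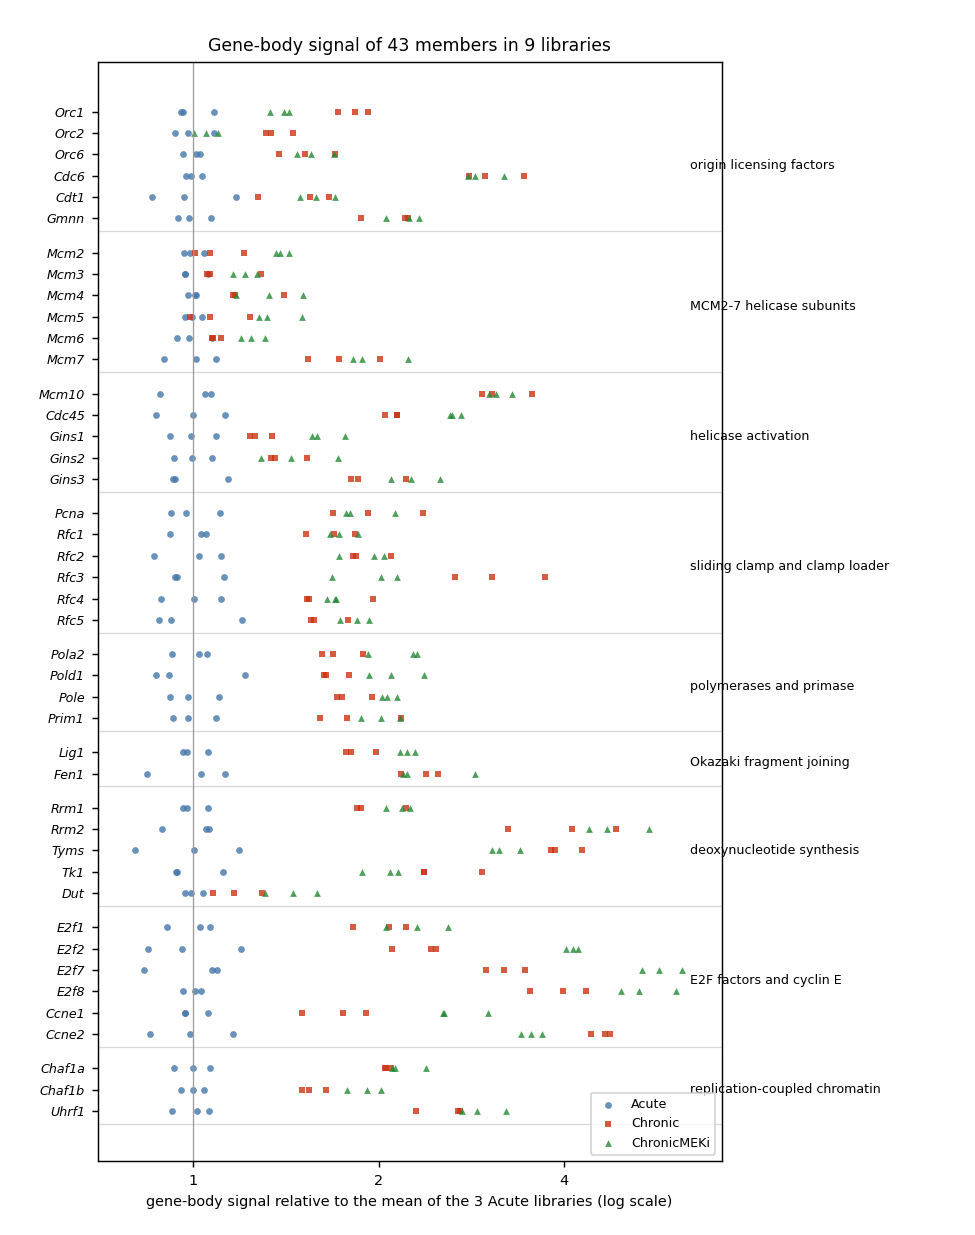
Gene-body signal of each of the 43 genes in each of the 9 libraries, divided by the mean of the 3 Acute libraries of that gene (log scale), with genes ordered by role. Chronic (squares) and ChronicMEKi (triangles) libraries lie to the right of Acute (circles) for most genes, while Mcm2, Mcm3 and Mcm5 overlap between Chronic and Acute.

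The scaling bears on the size of these changes. Scaled to library totals, in which the ribosomal RNA-like locus counts, the median of all genes moved by -0.49 between chronic and acute and by -0.38 between MEK-inhibited and acute libraries, and 25 of the 43 genes rose and 4 fell (Mcm2, Mcm3, Mcm5 and Mcm6) between chronic and acute, with a median of 0.39, while 30 rose and none fell between MEK-inhibited and acute libraries. Without the ribosomal RNA-like rows the totals moved the median of all genes by -0.16, and 35 rose and none fell, with a median of 0.72. Between MEK-inhibited and chronic libraries the median of all genes moved by 0.11 with library totals, and 12 of the 43 genes rose and 1 fell. With library totals the median over all genes was -0.50 between chronic and acute libraries, and many more genes fell than rose (counts at the end). Falls counted with library totals are to be read against that shift. Which scaling is nearer to amounts per cell cannot be told from these files.

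**Figure D2:**
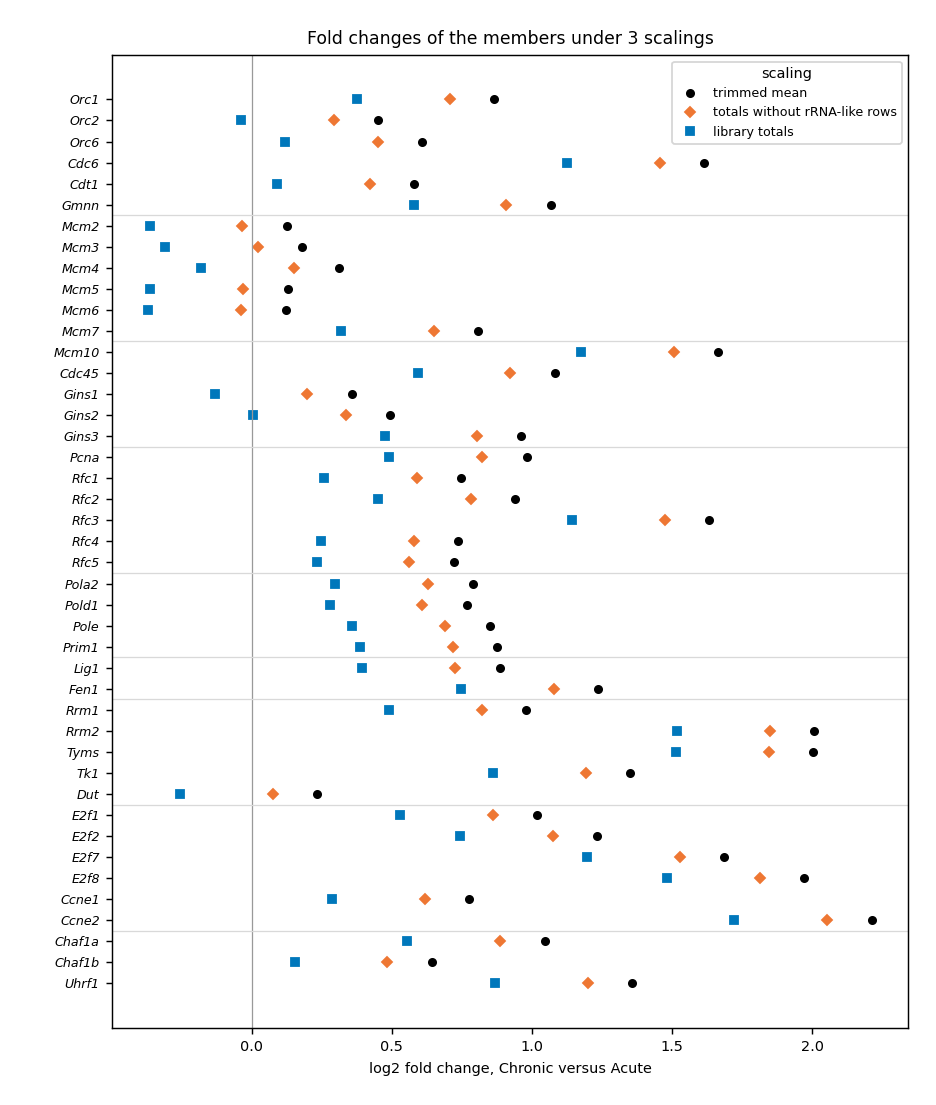
Log2 fold change of each gene between Chronic and Acute libraries after trimmed-mean scaling (circles), scaling to totals without ribosomal RNA-like rows (diamonds) and scaling to library totals (squares), with genes ordered by role. All genes shift left together, so that Mcm2 to Mcm6 cross 0 with library totals while Ccne2, Rrm2, Tyms and E2f8 stay above 1.

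Origin licensing factors rose after chronic stimulation, all 6 of them, and Cdc6 by far the most. Cdc6, the ATPase that helps the origin complex load the MCM ring, stood at 1604, 1669 and 1576 in acute, 4536, 4815 and 5573 in chronic and 4510.5, 4642 and 5171 in MEK-inhibited libraries. Chronic and MEK-inhibited libraries overlapped, and both lay far above acute ones: the log2 fold change was 1.61 ± 0.10 (adjusted p = 5.71e-10) for chronic against acute and -0.056 (adjusted p = 0.784) for MEK-inhibited against chronic. Orc1, the subunit of the origin complex whose level changes over the cell cycle, read 2691, 3018 and 2666 in acute, 5108, 5369 and 4794 in chronic and 3992, 3921 and 3729 in MEK-inhibited libraries. MEK-inhibited libraries were between the other groups without overlapping either, so that Orc1 rose by 0.87 under chronic stimulation (adjusted p = 6.98e-07) and fell with MEK inhibition, with a log2 fold change of -0.39 ± 0.092 (adjusted p = 0.00547).

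Orc2, another subunit of the same complex, had a signal of 3131, 3457 and 2986 in acute, 4268, 4641 and 4188 in chronic and 3502, 3355 and 3207 in MEK-inhibited libraries. It was higher in every chronic library than in any other, rising by 0.45 (adjusted p = 0.000971), and its MEK-inhibited libraries overlapped with the acute ones, at -0.38 ± 0.094 (adjusted p = 0.00772) against chronic and 0.074 (adjusted p = 0.622) against acute. Orc2 was the only one of the 43 genes not called between MEK-inhibited and acute libraries. Its row overlaps Nif3l1 on the other strand, and Orc1's overlaps Gm12743. Both falls were lost with library totals, at -0.28 for Orc1 (adjusted p = 0.168) and -0.27 for Orc2 (adjusted p = 0.185), and the rise of Orc2 over acute libraries turned to -0.037.

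Orc6, the smallest subunit of the complex, gave 1370.3, 1304 and 1388 in acute, 2054, 1867 and 2298 in chronic and 2296, 1994 and 2108 in MEK-inhibited libraries. It rose by 0.61 (adjusted p = 0.000349) and then stayed within the chronic range under the inhibitor, at 0.044 (adjusted p = 0.86). Cdt1, which brings MCM rings to the origin, rose by 0.58 (adjusted p = 0.00198), and Gmnn, whose product geminin blocks Cdt1, by 1.07 (adjusted p = 3.86e-07). Neither passed between MEK-inhibited and chronic libraries (0.098 and 0.072). The rises of Orc6 and Cdt1 did not pass with library totals, where they came to 0.12 and 0.092. The row used for Cdt1 is a retained-intron transcript, and Cdt1 overlaps Gm20388 on its own strand.

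The MCM genes, which encode the 6 subunits of the helicase ring, were the exception in the set. Only Mcm4 and Mcm7 of the 6 rose between chronic and acute libraries, with a group median of 0.15. With library totals Mcm7 alone rose and Mcm2, Mcm3, Mcm5 and Mcm6 fell, at -0.31 to -0.37. These falls were smaller than the shift of all genes, whose median was -0.50 under that scaling. Mcm6 read 6905, 6602 and 7505 in acute, 7517, 7547 and 7782 in chronic and 8368, 8700.4 and 9175 in MEK-inhibited libraries. Chronic libraries lay just above acute ones without overlap, but the log2 fold change of 0.12 (adjusted p = 0.28) did not pass. Mcm2 was similar between acute and chronic libraries and higher under the inhibitor, at 3458, 3633 and 3382 in acute, 3723, 3512 and 4224 in chronic and 4757, 4833 and 4989 in MEK-inhibited libraries. Its log2 fold change was 0.13 (adjusted p = 0.318) for chronic against acute and 0.35 ± 0.093 (adjusted p = 0.0121) for MEK-inhibited against chronic libraries.

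Mcm5 followed the same course, at 6043, 6281 and 5893 in acute, 6477, 6011 and 7523 in chronic and 8019.8, 7757 and 9114 in MEK-inhibited libraries, with overlapping acute and chronic groups (0.13, adjusted p = 0.327) and a rise of 0.32 ± 0.097 (adjusted p = 0.0295) with the inhibitor. Mcm3 stood at 4409.9, 4400.5 and 4802 in acute, 4788, 4838 and 5851 in chronic and 5518, 5268 and 5768 in MEK-inhibited libraries and Mcm4 at 2511, 2443 and 2507 in acute, 2885, 2911 and 3496 in chronic and 3303, 2925 and 3752 in MEK-inhibited libraries. For Mcm3 the groups overlapped except between MEK-inhibited and acute libraries, and for Mcm4 chronic and MEK-inhibited libraries overlapped each other but not the acute ones. Mcm3 did not pass between chronic and acute libraries (0.18, adjusted p = 0.162), while Mcm4 rose by 0.31 (adjusted p = 0.0361). That call of Mcm4 was lost when any 1 acute library, chronic replicate 3 or MEK-inhibited replicate 1 was left out, with an adjusted p of 0.0671 to 0.128 for acute and chronic libraries and of 0.050035 for the last.

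Mcm7 rose the most of the 6. It stood at 1866, 2109.5 and 2273 in acute, 3206, 3594 and 4188 in chronic and 3781, 3917 and 4644 in MEK-inhibited libraries, so that chronic libraries lay well above acute ones, and it rose by 0.81 ± 0.12 (adjusted p = 2.87e-05). The Mcm7 row also holds the hairpins of Mir106b, Mir93 and Mir25 on its own strand and overlaps Ap4m1 and Cops6 on the other, and without stated strand use their reads cannot be told apart. Between MEK-inhibited and acute libraries all 6 MCM genes rose, from 0.28 for Mcm3 to 0.98 for Mcm7, but with library totals only Mcm7 of the 6 passed, Mcm2, Mcm4 and Mcm5 came to 0.093, 0.028 and 0.063, and Mcm3 and Mcm6 to -0.10 and -0.062. The rise of Mcm3 over acute libraries was lost without any 1 acute or MEK-inhibited library (adjusted p from 0.0622 to 0.239), and that of Mcm6 without acute replicate 1 or 2 (0.0852 and 0.0764). For Mcm4, leaving out replicate 1 or 3 of the acute or of the MEK-inhibited group had that effect (0.0591 to 0.0688).

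E2F-type motifs were frequent in the promoter windows of the set, the MCM genes included. A window of 250 bases before to 50 after the RefSeq start was matched for 36 of the 43 genes. Where a gene had several, the window nearest the start of its row was used. For Mcm7, E2f1 and Cdc6 that RefSeq start still lay 539, 466 and 350 bases from the start of the row, beyond the reach of the window. An E2F-type motif (TTTCCCGC, TTTGGCGC or TTTCGCGC on either strand, where matches may overlap) was found in 12 of the 36, or 33.3%, against 3.10% of 13895 windows of genes tested and 1.84% of all 32851 windows. CCAAT, the box bound by NF-Y, was in 22, or 61.1%, against 37.2% and 37.4%. The 12 were Orc1, Cdc6, Cdt1, Mcm3, Mcm5, Mcm6, Mcm7, Gins3, Rfc3, Pold1, E2f2 and E2f7, so that 4 of the 5 matched MCM genes held the motif. The median log2 fold change between chronic and acute libraries was 0.84 for the 12 genes with it and 0.93 for the 24 without. Only exact matches to these strings were counted, so a gene without one may hold a variant of the motif. A match is a description of these letters and no evidence of binding.

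The 200 bases before the start of 4 genes with the motif are printed because they hold the motif in genes that differ in their values: Mcm5 and Mcm6, each with an overlapping pair of matches, did not pass between chronic and acute libraries, and Rfc3 and E2f7 moved in opposite directions with the inhibitor. Rrm2, a gene with one of the largest rises and no match, is given beside them. Capitals mark E2F-type motifs, and sequences run 5′ to 3′ along the gene, from RefSeq on GRCm38.p6. Mcm5 is at chr8:75109309-75109508 on the plus strand, Mcm6 at chr1:128359706-128359905 (minus), Rfc3 at chr5:151651209-151651408 (minus), E2f7 at chr10:110745239-110745438 (plus) and Rrm2 at chr12:24708054-24708253 (plus).
Mcm5: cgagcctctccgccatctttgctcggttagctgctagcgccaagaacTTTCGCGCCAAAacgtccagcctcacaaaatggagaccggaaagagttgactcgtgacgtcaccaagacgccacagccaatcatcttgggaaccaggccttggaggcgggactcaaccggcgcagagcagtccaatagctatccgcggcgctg
Mcm6: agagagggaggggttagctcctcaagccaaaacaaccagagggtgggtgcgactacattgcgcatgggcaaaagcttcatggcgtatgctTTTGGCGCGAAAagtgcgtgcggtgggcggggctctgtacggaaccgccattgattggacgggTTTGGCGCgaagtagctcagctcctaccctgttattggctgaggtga
Rfc3: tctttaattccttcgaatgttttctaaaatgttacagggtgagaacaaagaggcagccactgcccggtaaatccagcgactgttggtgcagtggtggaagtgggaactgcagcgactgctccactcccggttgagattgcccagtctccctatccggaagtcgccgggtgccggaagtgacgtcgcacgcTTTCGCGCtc
E2f7: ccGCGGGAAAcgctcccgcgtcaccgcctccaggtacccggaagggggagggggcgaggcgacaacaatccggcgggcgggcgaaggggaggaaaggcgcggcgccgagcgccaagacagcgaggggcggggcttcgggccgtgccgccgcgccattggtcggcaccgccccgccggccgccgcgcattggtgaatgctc
Rrm2: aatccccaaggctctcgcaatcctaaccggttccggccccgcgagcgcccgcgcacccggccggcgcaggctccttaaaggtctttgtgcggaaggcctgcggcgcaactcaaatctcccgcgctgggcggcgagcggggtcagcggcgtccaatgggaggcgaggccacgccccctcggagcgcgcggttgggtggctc

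In Mcm5 a match to TTTCGCGC 153 bases before the start and the reverse complement of TTTGGCGC 149 bases before it overlap in 1 palindrome-like run. Mcm6 holds the mirror image, a match to TTTGGCGC 110 bases before the start overlapped by the reverse complement of TTTCGCGC 106 bases before it, and another TTTGGCGC 47 bases before the start. Rfc3 has its match 10 bases before the start, and a further match to the reverse complement of TTTCCCGC at the start itself falls outside the printed stretch. In E2f7 the match lies 198 bases before the start.

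Genes that switch the loaded ring on rose in all 5 cases between chronic and acute libraries, with a median log2 fold change of 0.96. Mcm10, which is needed to start the helicase, read 745, 882 and 900.3 in acute, 2485, 2574 and 2994 in chronic and 2775, 2547 and 2610.1 in MEK-inhibited libraries. All chronic and MEK-inhibited libraries lay above every acute one and overlapped each other, with a log2 fold change of 1.67 ± 0.12 (adjusted p = 2.91e-09) for chronic against acute and -0.018 (adjusted p = 0.949) for the inhibitor. Set against the summed signal of Mcm2 to Mcm7 in the same library, Mcm10 came to 0.0296, 0.0346 and 0.0342 in acute, 0.0869, 0.0906 and 0.0906 in chronic and 0.0822, 0.0762 and 0.0697 in MEK-inhibited libraries. Every chronic and MEK-inhibited library had a higher ratio than any acute one, and this is a ratio that no library scaling touches.

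Cdc45, part of the active helicase, rose in both steps, by 1.08 (adjusted p = 1.62e-07) and then by 0.33 (adjusted p = 0.0309), although its row overlaps Ufd1 on the other strand. The GINS genes encode a further part of that helicase. Gins1 read 835, 991 and 905 in acute, 1221, 1149 and 1126 in chronic and 1419, 1449 and 1605 in MEK-inhibited libraries, with no overlap between any groups. It rose by 0.36 (adjusted p = 0.0352) after chronic stimulation, while the further difference of 0.35 (adjusted p = 0.0629) under the inhibitor did not pass. The chronic call of Gins1 was lost without acute replicate 1 or 3, chronic replicate 1 or 2 or MEK-inhibited replicate 2, with adjusted p from 0.0511 to 0.146. Gins2 stood at 1006, 1084 and 942 in acute, 1353, 1375 and 1547 in chronic and 1739.8, 1304 and 1455 in MEK-inhibited libraries, where chronic libraries overlapped with MEK-inhibited ones, and rose by 0.49 (adjusted p = 0.00726). Gins3 rose by 0.96 (adjusted p = 5.02e-05). With library totals Gins1 and Gins2 came to -0.13 and 0.0046.

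All 6 genes of the sliding clamp and its loader rose between chronic and acute libraries, and all 6 between MEK-inhibited and acute ones. With library totals Rfc1, Rfc4 and Rfc5 did not pass in the first comparison, at 0.26, 0.25 and 0.23 (adjusted p from 0.135 to 0.207), nor Rfc4 in the second (0.37, adjusted p = 0.0756). Pcna, the clamp itself, rose by 0.98 ± 0.12 (adjusted p = 3.42e-06) and differed by -0.059 (adjusted p = 0.814) with the inhibitor. Among the 5 subunits of replication factor C, which opens the clamp and loads it, Rfc3 moved furthest. Its signal was 413, 346 and 344 in acute, 979.7, 1124 and 1368 in chronic and 788, 618 and 743 in MEK-inhibited libraries. No groups overlapped: it rose by 1.63 ± 0.17 (adjusted p = 6.96e-07) after chronic stimulation and fell under the inhibitor, at -0.68 ± 0.17 (adjusted p = 0.00928), to a level still above acute (0.95, adjusted p = 0.000444).

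No other subunit passed between MEK-inhibited and chronic libraries. Rfc2 read 1484, 1608 and 1254 in acute, 3039, 2629 and 2665 in chronic and 2499, 2849.8 and 2957 in MEK-inhibited libraries, Rfc4 read 764, 675 and 844 in acute, 1165, 1172 and 1490.5 in chronic and 1254, 1299 and 1296 in MEK-inhibited libraries, and Rfc5 read 951, 1294 and 993 in acute, 1697, 1679.9 and 1929 in chronic and 2083, 1872 and 1988 in MEK-inhibited libraries. In all of them chronic and MEK-inhibited libraries overlapped and lay above acute ones, with log2 fold changes of 0.94, 0.74 and 0.72 between chronic and acute libraries. The large subunit Rfc1 rose by 0.75 (adjusted p = 6.56e-06). Rfc3 relative to the summed signal of the other 4 was 0.0618, 0.0519 and 0.052 in acute, 0.0812, 0.1 and 0.122 in chronic and 0.0652, 0.053 and 0.0616 in MEK-inhibited libraries. The fall of Rfc3 did not pass without chronic replicate 3 (-0.56, adjusted p = 0.050032) or MEK-inhibited replicate 2 (-0.58, adjusted p = 0.0519). Rfc2 overlaps Lat2, Rfc4 overlaps Eif4a2 and Rfc5 overlaps Wsb2 on the other strand.

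All 4 genes of the replicative polymerases and primase rose between chronic and acute libraries, by 0.77 to 0.88, but with library totals Pola2 (0.30, adjusted p = 0.0791) and Pold1 (0.28, adjusted p = 0.117) did not pass. Prim1, the catalytic subunit of primase, read 1032, 975 and 1144 in acute, 1866, 2279.8 and 1685 in chronic and 2117, 1968 and 2274 in MEK-inhibited libraries, and Pold1, the catalytic subunit of the lagging-strand polymerase delta, read 1429, 1995 and 1501 in acute, 2938, 2675 and 2699 in chronic and 3886, 3164 and 3443 in MEK-inhibited libraries. Chronic and MEK-inhibited libraries were above acute ones for both, and for Pold1 the MEK-inhibited libraries also lay above all chronic ones, although the difference of 0.33 (adjusted p = 0.0788) did not pass. Pola2, an accessory subunit of the primase-bound polymerase alpha, rose in both steps, from 1536, 1755 and 1701 in acute, 3134, 2692 and 2811 in chronic and 3838, 3203 and 3783 in MEK-inhibited libraries, with 0.79 (adjusted p = 1.36e-05) and 0.32 (adjusted p = 0.0451). Pole, the leading-strand polymerase epsilon, rose by 0.85 (adjusted p = 1.99e-06) and differed by 0.21 (adjusted p = 0.169) with the inhibitor.

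Both genes that finish lagging-strand fragments rose. Fen1, the nuclease that trims their flaps, stood at 941, 703 and 862 in acute, 1819.6, 1992 and 2083 in chronic and 1855, 1827 and 2398 in MEK-inhibited libraries, and Lig1, the ligase that seals them, at 2671, 2631 and 2882 in acute, 4919, 4824 and 5394 in chronic and 6057, 5917 and 6242 in MEK-inhibited libraries. For Fen1 the chronic and MEK-inhibited libraries overlapped, and for Lig1 all 3 groups stood apart in the order acute, chronic, MEK-inhibited. Fen1 rose by 1.24 ± 0.14 (adjusted p = 1.44e-06) and Lig1 by 0.89 ± 0.088 (adjusted p = 3.03e-07) between chronic and acute libraries, and Lig1 rose further with the inhibitor, by 0.27 (adjusted p = 0.0429). The row used for Lig1 is a processed transcript that overlaps Zswim9, and that of Fen1 overlaps Tmem258, both on the other strand.

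Deoxynucleotide synthesis held some of the largest rises of the set: 4 of its 5 genes rose between chronic and acute libraries, with a median of 1.35. Rrm2, the regulated small subunit of ribonucleotide reductase (chr12:24708241-24714146 on GRCm38), read 2120.1, 2528 and 2504 in acute, 7730.4, 9824 and 11562 in chronic and 11192, 10446 and 13078 in MEK-inhibited libraries. It rose by 2.01 ± 0.13 (adjusted p = 3.18e-09) with chronic stimulation, and MEK-inhibited libraries overlapped with chronic ones (0.27, adjusted p = 0.19). Rrm1, the large subunit, stood at 2534, 2500.2 and 2742 in acute, 4857, 4779.7 and 5747 in chronic and 5331, 5665 and 5828 in MEK-inhibited libraries and rose by less, 0.98 ± 0.096 (adjusted p = 2.40e-07). The ratio of Rrm2 to Rrm1 signal was 0.837, 1.01 and 0.913 in acute, 1.59, 2.06 and 2.01 in chronic and 2.1, 1.84 and 2.24 in MEK-inhibited libraries.

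Tyms and Tk1, of thymidylate supply, rose with chronic stimulation. Tyms, thymidylate synthase, read 874, 1090.1 and 1289 in acute, 4188, 4138 and 4629 in chronic and 3314, 3679.8 and 3398 in MEK-inhibited libraries, and Tk1, the cytosolic thymidine kinase, read 1790.3, 2126 and 1783 in acute, 5589.5, 4506 and 4503 in chronic and 4085, 3968 and 3566 in MEK-inhibited libraries. In both, MEK-inhibited libraries lay below every chronic and above every acute library. Tyms rose by 2.005 ± 0.12 (adjusted p = 5.38e-10) and Tk1 by 1.35 ± 0.11 (adjusted p = 2.29e-08), while the differences under the inhibitor, -0.32 (adjusted p = 0.0911) and -0.32 (adjusted p = 0.0515), did not pass. Dut, the dUTPase that makes the precursor of thymidylate, was like them higher in every chronic than in any acute library. Under the inhibitor its difference from chronic libraries had the other sign. Dut stood at 2913, 2985 and 3115 in acute, 3500.5, 3240.1 and 3887 in chronic and 4362, 3929 and 4770.2 in MEK-inhibited libraries. It did not pass between chronic and acute libraries (0.23, adjusted p = 0.0828) and rose with the inhibitor, only just past the threshold, by 0.30 (adjusted p = 0.049993). The row used for Tyms is a transcript annotated for nonsense-mediated decay, and Tk1 overlaps Afmid on the other strand.

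By group median, E2F factors and cyclin E genes changed most in both steps, although not each of them did. All 6 rose between chronic and acute libraries, with a median log2 fold change of 1.46, and with MEK inhibition 4 rose and 1 fell. E2f7, an atypical E2F that represses E2F targets (chr10:110745439-110787384), read 589, 773 and 759.6 in acute, 2259, 2441 and 2117 in chronic and 4388, 4034 and 3790.2 in MEK-inhibited libraries. The groups formed 3 separate steps: 1.69 ± 0.12 (adjusted p = 4.98e-09) from acute to chronic and 0.84 ± 0.12 (adjusted p = 6.68e-05) from chronic to MEK-inhibited, the largest rise of the 43 genes under the inhibitor. Its partner E2f8, the other atypical repressor, also formed 3 separate groups, at 772, 754 and 722 in acute, 2643, 2987 and 3256 in chronic and 3963, 3704 and 4558 in MEK-inhibited libraries. It rose by 1.97 ± 0.11 (adjusted p = 2.22e-10) and then by 0.46 ± 0.11 (adjusted p = 0.00769).

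E2f2, an activating E2F (chr4:136172394-136196057), stood at 1744, 2475 and 1981 in acute, 5129.5, 5020.4 and 4339 in chronic and 8549, 8716 and 8334 in MEK-inhibited libraries, again in 3 steps. Its log2 fold change was 1.23 ± 0.11 (adjusted p = 1.19e-07) with chronic stimulation and 0.82 ± 0.11 (adjusted p = 3.73e-05) with the inhibitor. E2f1, the other activator in the set, read 729, 823 and 857 in acute, 1777, 1669 and 1458 in chronic and 1854, 2082 and 1653 in MEK-inhibited libraries and did not share the second step: it rose by 1.02 ± 0.13 (adjusted p = 6.97e-06) and differed by 0.19 (adjusted p = 0.391) under the inhibitor, with overlapping libraries. E2f2 relative to E2f1 was 2.39, 3.01 and 2.31 in acute, 2.89, 3.01 and 2.98 in chronic and 4.61, 4.19 and 5.04 in MEK-inhibited libraries, and E2f7 relative to E2f1 was 0.808, 0.939 and 0.887, 1.27, 1.46 and 1.45 and 2.37, 1.94 and 2.29.

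The 2 cyclin E genes parted under the inhibitor. Ccne2 (chr4:11191351-11204779), with the largest rise of all 43 genes after chronic stimulation, read 1523, 1309 and 1787 in acute, 6810.4, 7309.9 and 7180.5 in chronic and 5432, 5680.0 and 5244 in MEK-inhibited libraries. It rose by 2.21 ± 0.11 (adjusted p = 2.59e-11) and then fell by a smaller step, at -0.38 ± 0.11 (adjusted p = 0.0169). Ccne1 (chr7:38097984-38107534) stood at 1325, 1215 and 1215 in acute, 1883, 2195 and 2393 in chronic and 3184, 3199 and 3763 in MEK-inhibited libraries. It rose by 0.78 ± 0.12 (adjusted p = 3.67e-05) and again by 0.65 ± 0.12 (adjusted p = 0.000477). With library totals the fall of Ccne2 (-0.27, adjusted p = 0.237) and the rise of Ccne1 between chronic and acute libraries (0.29, adjusted p = 0.0740) did not pass. The Ccne2 to Ccne1 ratio went from 1.15, 1.08 and 1.47 in acute to 3.62, 3.33 and 3 in chronic and back to 1.71, 1.78 and 1.39 in MEK-inhibited libraries. The ratios given here were chosen after the values were seen and are descriptions with no test. Ccne2 overlaps Ints8, E2f7 overlaps 1700020G17Rik and E2f8 overlaps Gm2788 on the other strand.

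**Figure D3:**
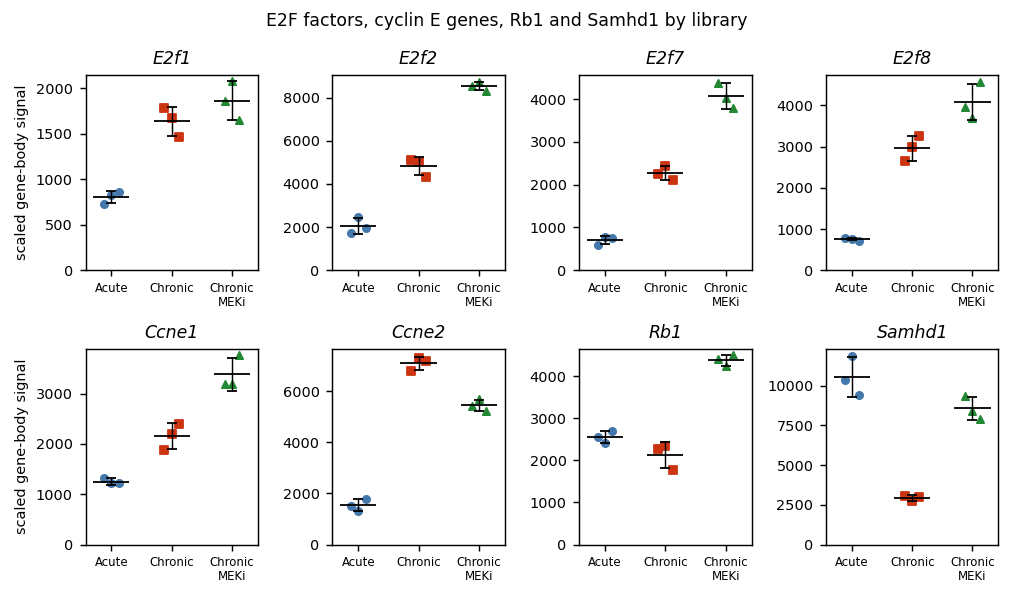
Scaled gene-body signal by library for 4 E2F genes, both cyclin E genes, Rb1 and Samhd1 (points: libraries; horizontal line and bars: mean ± SD, n = 3). E2f2, E2f7, E2f8 and Ccne1 step up in both comparisons, Ccne2 peaks in Chronic libraries, and Rb1 rises in ChronicMEKi libraries. Samhd1 is far lower in Chronic libraries than in the other groups, and its ChronicMEKi libraries lie below the Acute ones.

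Chromatin genes that work at the fork completed the set. Uhrf1, which brings the maintenance methyltransferase to newly replicated DNA, read 3023, 3328 and 3470.0 in acute, 8819, 7539.7 and 8873 in chronic and 10557, 8926 and 9471 in MEK-inhibited libraries, and rose by 1.36 ± 0.097 (adjusted p = 3.84e-09). Chaf1a, the large subunit of the histone chaperone CAF-1, stood at 2383, 2239.9 and 2086 in acute, 4583, 4591 and 4677 in chronic and 5345, 4762 and 4698 in MEK-inhibited libraries and rose by 1.05 (adjusted p = 6.54e-08). Chaf1b, its middle subunit, read 1112, 1159.6 and 1064 in acute, 1672, 1714 and 1830.0 in chronic and 2127, 1976 and 2241 in MEK-inhibited libraries and rose by 0.64 (adjusted p = 0.000163), a call that was lost with library totals (0.15, adjusted p = 0.357). In all 3 the MEK-inhibited libraries lay wholly above the chronic ones, but no difference passed (0.20, 0.094 and 0.28).

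**Figure D4:**
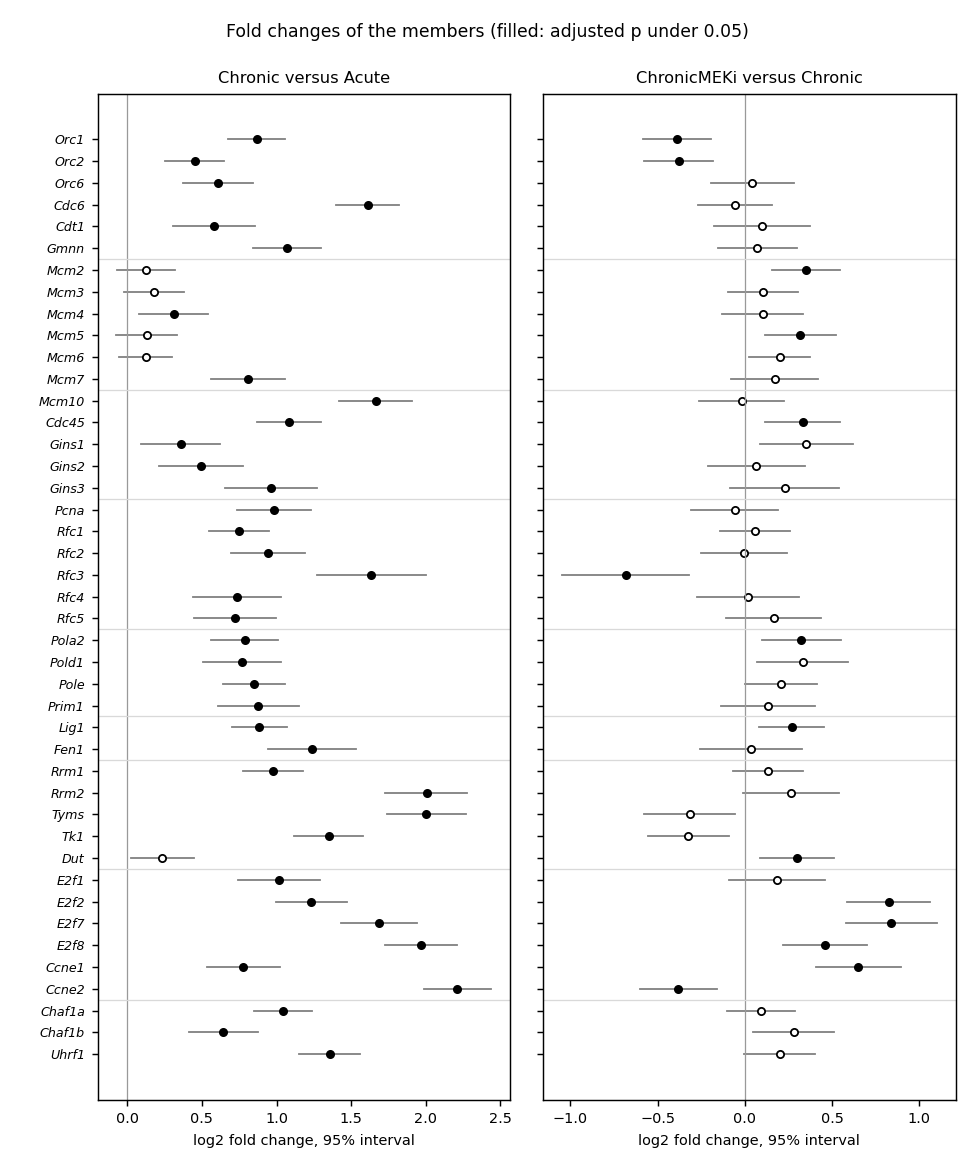
Log2 fold change with its 95% interval for each gene, for Chronic against Acute (left) and ChronicMEKi against Chronic libraries (right), with filled points for an adjusted p under 0.05 and lines between role groups. On the left all points lie above 0, from 0.12 for Mcm6 to 2.21 for Ccne2, while on the right many intervals include 0 and Rfc3 (-0.68) and E2f7 (0.84) mark the ends.

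The calls differed in how firmly they stood. Over 18 alternative settings, 25 of the 38 calls between chronic and acute libraries and 30 of the 42 between MEK-inhibited and acute libraries passed in each. Of the 14 between MEK-inhibited and chronic libraries, only E2f2, E2f7 and Ccne1 did. Orc1 and Rfc3 passed in 16 and 16 of the 18, E2f8 and Orc2 in 15 and 15, and Ccne2 and Mcm2 in 13 and 13, while Cdc45, Mcm5, Pola2, Lig1 and Dut passed in 9, 8, 7, 6 and 5. Many of these changed when 1 library was left out. The count of 10 rises went to 3 without MEK-inhibited replicate 1 or 3, to 4 without chronic replicate 2 and to 6 without chronic replicate 1. It went to 6 without acute replicate 3 and to 5 without acute replicate 1 or 2. E2f8 did not pass without MEK-inhibited replicate 1 (0.42, adjusted p = 0.0570) or 3 (0.38, adjusted p = 0.0624), nor Ccne2 without chronic replicate 2 (-0.36, adjusted p = 0.0656) or MEK-inhibited replicate 3 (-0.35, adjusted p = 0.0763). Mcm2 did not pass without chronic replicate 2 (0.29, adjusted p = 0.0660) or MEK-inhibited replicate 1 (0.31, adjusted p = 0.0878) or 3 (0.33, adjusted p = 0.0548). Cdc45, Mcm5, Pola2, Lig1 and Dut each failed in 7 or 8 of the 9 fits that left out 1 library, with adjusted p up to 0.312. In the other direction, Tk1 and Tyms passed as falls when any 1 acute library was left out, with log2 fold changes of -0.38 to -0.39 for Tk1 and -0.37 to -0.38 for Tyms. Leaving out an acute library removes none from this comparison, but the median of all genes in it moved by -0.052 to -0.061.

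Levels within the set can be compared only per length, here as mean signal per kb of the row's span in the genome. In chronic libraries Rrm2 was highest, at 1643 per kb, followed by Pcna at 1489.5, Ccne2 at 533 and Mcm7 at 467. In acute libraries Pcna led at 748, ahead of Rrm2 at 404, and E2f7 was lowest at 16.9. The atypical E2F gene thus began from the lowest level per length and reached 97.1 per kb under the inhibitor, above Rfc1 at 79.9 and Orc2 at 79.2. Region bounds used by the authors are not given in the sources used here, so these levels are approximate.

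The signal near the start of the genes, in the table read here as pause region, was scaled and fitted on its own and is weaker. Of the 43 genes 40 passed the filter there (Cdc45, Gins2 and Lig1 did not), among 7678 genes. Between chronic and acute libraries 16 of the 40 rose and none fell, against 5.37% and 5.35% of all genes tested there (10.7% together), and between MEK-inhibited and acute libraries 15 rose and none fell, against 3.46% and 2.53% (5.99% together). Tyms rose there by 2.23 ± 0.29 (adjusted p = 2.70e-06), E2f7 by 2.15 ± 0.29 (adjusted p = 4.72e-06), Cdc6 by 1.91 ± 0.26 (adjusted p = 5.76e-06) and Rrm2 by 1.90 ± 0.22 (adjusted p = 4.82e-07). With library totals the first count was 5 rises and 1 fall.

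Between MEK-inhibited and chronic libraries the sole call of the 40 in the pause region was a rise of Mcm5, against 1.56% of all genes rising and 1.43% falling there. Its pause-region signal was 648, 734 and 801 in acute, 662, 563 and 689 in chronic and 1061, 994 and 1053 in MEK-inhibited libraries, with a log2 fold change of 0.70 ± 0.18 (adjusted p = 0.0242). This call was lost in some of the fits that left out 1 library. Pausing, the change of pause-region signal beyond that of the gene body, was called for none of 7413 genes by limma (0.00%) in any comparison. At an unadjusted p under 0.05, 749 of all genes and 3 of the 40 passed between chronic and acute libraries, 395 and 0 between MEK-inhibited and chronic, and 591 and 1 between MEK-inhibited and acute.

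Related genes outside the set moved less uniformly. Counts in these lists are to be read beside the shares of all genes tested. Between chronic and acute libraries 18.0% of all genes rose and 15.9% fell. The shares were 9.92% and 7.65% between MEK-inhibited and chronic libraries, and 14.4% and 11.5% between MEK-inhibited and acute ones. Of 42 other replication fork and origin genes, 27 rose and 2 fell between chronic and acute libraries, with a median of 0.54. With library totals 10 rose and 12 fell, where the median of all genes was -0.50. Recql4, a helicase needed to fire origins, rose by 1.92 (adjusted p = 1.09e-05), Asf1b, a histone chaperone, by 1.90 (adjusted p = 1.08e-08) and Clspn, a fork checkpoint mediator, by 1.83 (adjusted p = 4.94e-10), while Orc4 and Mcmbp, an MCM-binding protein, fell, with log2 fold changes of -0.62 (adjusted p = 0.000204) and -0.26 (adjusted p = 0.0247). With the inhibitor 3 of the 42 rose and none fell: Top2a, topoisomerase II alpha (0.58, adjusted p = 4.29e-05), Timeless of the fork protection complex (0.49, adjusted p = 0.0106) and Dnmt1, the maintenance methyltransferase (0.44, adjusted p = 0.000999). Between MEK-inhibited and acute libraries 27 rose and Orc4 alone fell, and Chtf18, of an alternative clamp loader, rose by 2.11 (adjusted p = 2.13e-06).

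De novo purine and pyrimidine synthesis did not follow the replication genes. Of its 20 genes 5 rose and none fell between chronic and acute libraries, against 18.0% and 15.9% of all genes tested, with a median of 0.19. With library totals none rose and 8 fell, where the median of all genes was -0.50. With the inhibitor 5 fell and none rose, against 7.65% and 9.92% of all genes tested. The median of all genes moved by 0.11 with library totals in that comparison, and these falls are to be read against that shift. Nme2, a nucleoside diphosphate kinase, rose by 0.50 (adjusted p = 0.00198) and fell under the inhibitor, at -0.44 (adjusted p = 0.0104), Pfas of purine synthesis rose by 0.39 (adjusted p = 0.0128), and Gart, also of purine synthesis, fell with the inhibitor (-0.35, adjusted p = 0.0311).

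Of 8 folate enzymes that feed thymidylate synthase, 2 fell and none rose with the inhibitor, against 7.65% and 9.92% of all genes tested. These were Shmt1 and Mthfd2, of serine-derived one-carbon supply, with log2 fold changes of -0.60 (adjusted p = 0.000244) and -0.37 (adjusted p = 0.0302). With library totals the median of all genes moved by 0.11 in this comparison, and these falls are to be read against that shift.

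Salvage and turnover of deoxynucleotides went both ways, with 3 rises and 3 falls among 8 genes between chronic and acute libraries. Samhd1, which breaks down deoxynucleoside triphosphates, stood out at 10344, 11871 and 9429 in acute, 3078, 2742 and 2983 in chronic and 9378, 8409 and 7926 in MEK-inhibited libraries. Chronic libraries lay below both other groups, and each MEK-inhibited library also lay below every acute one. Samhd1 fell with chronic stimulation, with a log2 fold change of -1.84 ± 0.10 (adjusted p = 1.06e-10), and rose by 1.54 ± 0.10 (adjusted p = 3.60e-09) with the inhibitor. Dck, the deoxycytidine kinase of the salvage path, stood at 597, 687 and 643 in acute, 2015, 1656 and 2142 in chronic and 2341, 1885 and 2262 in MEK-inhibited libraries and rose by 1.58 ± 0.13 (adjusted p = 3.43e-08). Rrm2 over Samhd1, a gene that makes against a gene that breaks down deoxynucleotides, was 0.205, 0.213 and 0.266 in acute, 2.51, 3.58 and 3.88 in chronic and 1.19, 1.24 and 1.65 in MEK-inhibited libraries. Dguok and Tk2, the mitochondrial deoxynucleoside kinases, fell between chronic and acute libraries (log2 fold changes -0.70, adjusted p = 0.00121 and -0.67, adjusted p = 0.00183).

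Genes of E2F and retinoblastoma control, 19 in number, rose in 11 cases and fell in 2 between chronic and acute libraries, with a median of 0.51. With library totals 3 rose and 6 fell, where the median of all genes was -0.50. Mybl2, which drives late S phase and mitotic genes, rose by 1.86 (adjusted p = 1.82e-10), Tfdp2, a dimer partner of E2F, by 1.45 (adjusted p = 4.31e-06) and Skp2, a ubiquitin ligase subunit that targets the inhibitor p27, by 1.25 (adjusted p = 1.88e-07). With MEK inhibition 7 rose and none fell. Rb1, the retinoblastoma gene, read 2546, 2425 and 2695 in acute, 2274, 2335 and 1777 in chronic and 4406, 4242 and 4503 in MEK-inhibited libraries, so that acute and chronic libraries did not overlap by a small margin (-0.27, adjusted p = 0.0639) and MEK-inhibited ones lay far above, with a rise of 1.05 ± 0.11 (adjusted p = 1.31e-06). Rbl2, the related pocket protein p130 of resting cells, stood at 2480.0, 1987 and 2609.8 in acute, 3578, 3633 and 3124 in chronic and 6055, 5758 and 6079.5 in MEK-inhibited libraries and rose in both steps (log2 fold changes 0.55, adjusted p = 0.000581 and 0.79, adjusted p = 3.03e-05).

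Replication-dependent histone genes, 22 listed and 21 tested, rose in 6 cases between chronic and acute libraries, in none between MEK-inhibited and chronic, and in 14 between MEK-inhibited and acute, without a fall. With library totals the first count became 1 rise and 1 fall, and the second 3 rises. Hist1h3e rose by 1.19 (adjusted p = 0.0011) between chronic and acute libraries and Hist2h3c2 by 1.35 (adjusted p = 0.000267) between MEK-inhibited and acute ones. These genes are short near-identical copies, so values of single ones are uncertain.

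**Figure D5:**
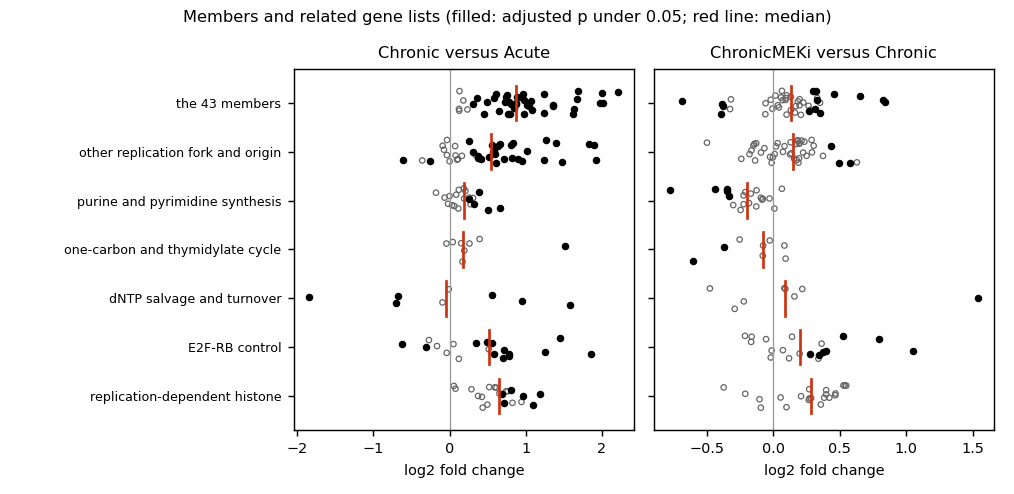
Log2 fold changes of the 43 genes and of 6 related gene lists for Chronic against Acute (left) and ChronicMEKi against Chronic libraries (right), with 1 point per gene, filled for an adjusted p under 0.05, and a red line at each median. The 43 genes lie highest on the left (median 0.88), ahead of replication-dependent histone genes (0.65), other fork and origin genes (0.54) and of E2F-RB control genes (0.51), while on the right most medians are near 0.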

How the data were processed

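Nascent RNA labelled with 5-ethynyl uridine was measured in 9 libraries of mouse CD8 T cells (100-base paired reads), 3 per group as the titles label them. The authors deposited 2 tables of signal per transcript, read here from their names as gene body and pause region. Although named as counts, values are whole multiples of a step that differs between libraries, so no read counts could be taken from the deposited signal, and depth is unknown. Per the submitters' processing notes, the build was mm10 and the tools included FastQC 0.12.0, Trim Galore 0.6.10, STAR 2.7.0a, SAMtools 1.19.2, deepTools 0.1.9 and R 4.1.2. Strand use, region bounds and the scaling are not given in the sources used here.

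Of 118482 rows, 117346 matched GENCODE M21 (GRCm38) with their version and 383 without, giving 37022 genes on chromosomes 1 to 19. Each gene was represented by its row of highest mean gene-body signal. Genes reaching a signal of 50 in 3 or more libraries were kept, and libraries were scaled by a trimmed mean without weights (trimming 30% of the log ratios and 5% of the mean levels at both ends). Values were fitted on log2(signal + 5) with limma 3.58.1 (trend, robust; R 4.3.3) over all 9 libraries, 1 mean per group, with Benjamini-Hochberg adjustment and a threshold of 0.05. Pausing was tested on the per-library difference of both log2 values. The fit was tested on simulated data. Python 3.11.15 and pandas 2.3.3 handled the tables. Of the 43 genes, 21 overlap no other annotated gene, 18 overlap one on the opposite strand and 8 overlap one on the same strand. Promoter windows are RefSeq's (GRCm38.p6).

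The 43 genes and the related lists were chosen with earlier results of these data known. All 43 may be named, with values in each library for the largest and smallest change of each role group and for called genes that go against their group. From each related list up to 3 rises and 3 falls per comparison are named, largest first, and Rb1, Rbl2 and Dck were given by library after their values were seen. Some genes that this rule takes are not reported here.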

Additional observations from a re-analysis of the deposited data

How the results depend on the processing

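Each count and median of the gene body was recomputed under 18 alternatives: 3 scalings, a pseudocount of 0.5, no filter, the longest transcript, no trend or robust moderation, a replicate block, only the groups compared, and each library left out. The cause of each change was not tested. A change of scaling shifts all genes alike, and leaving out a library reduces n and also moves the scaling. Without acute replicate 1, 2 or 3 the median of all genes between MEK-inhibited and chronic libraries moved by -0.052, -0.061 and -0.052. Depth in reads is unknown, so no counting limit can be given, and the smallest differences between MEK-inhibited and chronic libraries are within the reach of a single library.

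Over all 15942 genes tested, rises and falls between chronic and acute libraries went from 2875 and 2528 to 1096 and 6846 with library totals. On the deposited scale they went to 1134 and 6713. Between MEK-inhibited and acute libraries they went from 2291 and 1827 to 955 and 4965 with totals and 1023 and 4542 as deposited, rises to 1305 without a filter and falls to 3151 with totals less ribosomal RNA-like rows. Between MEK-inhibited and chronic libraries, falls went from 1219 to 741 and 721 under the first 2 scalings, and rises from 1582 to 725 without a filter and to 933 to 1526 with a library left out.

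Of the 43 genes, 25 rose between chronic and acute libraries with totals and also as deposited, and 4 and 3 fell. Their median went to 0.39, 0.40 and, without ribosomal RNA-like rows, 0.72. Between MEK-inhibited and acute libraries it went to 0.65 and 0.69 and 0.86. Between MEK-inhibited and chronic libraries it was 0.26 as deposited, 1 gene fell with totals or as deposited, and 3 rose without a filter, 4 without trend and robust moderation, 6 with only the groups compared, and 3 to 10 with a library left out.

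In the pause region, rises and falls over all genes went with totals from 412 and 411 to 123 and 1600 (chronic against acute), from 266 and 194 to 92 and 483 (MEK-inhibited against acute), and falls from 110 to 40 (MEK-inhibited against chronic). With a library left out they ranged from 254 to 381 and 244 to 393, from 122 to 277 and 99 to 256, and from 58 to 142 and 41 to 137. Rises among the 40 genes were 5, with 1 fall, and 8 with totals for chronic and MEK-inhibited against acute libraries, and 8 to 16 for the latter and 0 to 1 for MEK-inhibited against chronic with a library left out. Pausing between chronic and acute libraries was called for 2 rises and 2 falls with totals, 1 rise with a pseudocount of 0.5, and 0 to 1 with a library left out.

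Single genes changed sign with totals for chronic against acute libraries Orc2 (-0.037), Mcm2 (-0.36), Mcm3 (-0.31), Mcm4 (-0.18), Mcm5 (-0.36), Mcm6 (-0.37), Gins1 (-0.13), Dut (-0.26) and Pfas (-0.10), for MEK-inhibited against chronic libraries Cdc6 (0.050), Mcm10 (0.088), Pcna (0.048) and Rfc2 (0.10), for MEK-inhibited against acute libraries Orc2 (-0.31), Mcm3 (-0.10), Mcm6 (-0.062), Cad (-0.13) and Dtymk (-0.049). On the deposited scale they did so for chronic against acute libraries Orc2 (-0.020), Mcm2 (-0.35), Mcm3 (-0.29), Mcm4 (-0.16), Mcm5 (-0.34), Mcm6 (-0.35), Gins1 (-0.11), Dut (-0.24) and Pfas (-0.087), for MEK-inhibited against chronic libraries Cdc6 (0.074), Mcm10 (0.11), Pcna (0.072) and Rfc2 (0.12), for MEK-inhibited against acute libraries Orc2 (-0.27), Mcm3 (-0.060), Mcm6 (-0.021), Cad (-0.087) and Dtymk (-0.0079). With totals without ribosomal RNA-like rows the sign changed for chronic against acute libraries Mcm2 (-0.033), Mcm5 (-0.029) and Mcm6 (-0.036), for MEK-inhibited against acute libraries Orc2 (-0.095). Without a filter it changed for MEK-inhibited against chronic libraries Orc6 (-0.027), Gins2 (-0.0043), Rfc1 (-0.011), Rfc4 (-0.052) and Fen1 (-0.035), and with only the groups compared for MEK-inhibited against chronic libraries Rfc4 (-0.010). With a library left out, genes near 0 changed sign over ranges, for MEK-inhibited against chronic libraries Orc6 -0.068 to 0.12, Cdc6 -0.12 to 0.027, Cdt1 -0.015 to 0.18, Gmnn -0.011 to 0.12, Mcm10 -0.11 to 0.062, Gins2 -0.10 to 0.16, Pcna -0.17 to 0.070, Rfc1 -0.040 to 0.12, Rfc2 -0.067 to 0.059, Rfc4 -0.044 to 0.13, Fen1 -0.091 to 0.10 and Chaf1a -0.023 to 0.13, and for MEK-inhibited against acute libraries Orc2 -0.031 to 0.11.

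Samples with the same replicate number did not deviate together: correlations of their deviations ran from -0.53 to 0.098 over 9 pairs, and from -0.37 to 0.51 over 18 pairs with other numbers, so the numbers are taken as names only. With them as a replicate block, rises and falls over all genes were 2947 and 2550 for chronic against acute, 1668 and 1288 for MEK-inhibited against chronic, and 2369 and 1894 for MEK-inhibited against acute libraries, with 38, 10 and 42 rises among the 43. Under the block Tk1 also passed as a fall between MEK-inhibited and chronic libraries (-0.32, adjusted p = 0.0362), and the block changed no other call among the 43.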
